A study of Mus musculus with 4 samples.

Results

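*Myc* and 9 genes of growth-linked biosynthesis, *Ptma*, *Ncl*, *Npm1*, *Nop56*, *Nop58*, *Fbl*, *Odc1*, *Eif4a1* and *Eif5a*, were taken by symbol from the UMI counts of liver mononuclear cells and read in B cells, T cell subsets and NK cells of each library. They are 10 of the 31053 genes counted. Mice of the strain C57BL/6, aged 8 to 10 weeks, were left untreated (Naïve) or were given concanavalin A (ConA), a lectin of the jack bean whose stimulation of T cells leads to hepatitis, and then vehicle (ConA+Veh), the dioxin TCDD (ConA+TCDD) or FICZ, a compound derived from tryptophan (ConA+FICZ). TCDD and FICZ are both ligands of the aryl hydrocarbon receptor (AhR), and no label names a deletion or a transgene. Cells were taken from the liver 24 hours after ConA by enzymatic dissociation and a Percoll gradient and were measured by droplet 5′ RNA sequencing, with 1 library per group. The number of mice behind a library and the dose of FICZ are not given in the sources used here.

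Myc is a transcription factor that binds E-box sequences together with its partner Max and raises the transcription of genes for ribosome assembly, nucleotide and polyamine synthesis and translation, so that a lymphocyte enlarges before it divides. The nucleolus is where ribosomal RNA is made, modified and assembled, the polyamines are small charged metabolites that growing cells need, and the initiation factors bring messenger RNA to the ribosome. Stimulated lymphocytes are known for a large rise of this machinery, and circulating resting lymphocytes for its low level.

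Cells were assigned by marker genes, and none of the 10 genes is among the markers. A B cell held at least 2 of 6 B cell markers. A T cell held at least 2 of 6 T cell markers including a *Cd3* gene. An NK cell held at least 2 of 6 NK cell markers with no UMI of *Cd3d*, *Cd3e* or *Trac*. Cells with markers of a further cell type were left out, but hepatocyte markers barred no cell. The B gate held 1085, 815, 411 and 779 cells in Naïve, ConA+Veh, ConA+TCDD, then ConA+FICZ, the T gate 521, 813, 667 and 564, and the NK gate 120, 224, 179 and 174. Within the T gate, 170, 388, 270 and 243 cells had a UMI of *Cd8a* or *Cd8b1* and none of *Cd4* or *Foxp3* (CD8 T), 81, 118, 84 and 73 had *Cd4* alone (CD4 T), and 263, 252, 282 and 203 had none of these genes (DN T). The DN T gate can hold T cells without either coreceptor as well as cells whose coreceptor RNA was not captured. Treg cells with a *Foxp3* UMI numbered 3, 13, 16 and 23, too few for most values. Together the 3 gates held 1721 of 2086, 1844 of 2779, 1252 of 1880 and 1513 of 2555 cells, each counted once. Some cells passed both the T and the NK gate, as the T gate did not bar NK cell markers.

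The libraries differed in depth, with 5952445 to 19252211 UMIs in all and a median of 2161 to 3984 UMIs per cell, and the median depth of CD8 T cells was 3265.5, 10162.5, 9159 and 12329 UMIs. Values of the 4 libraries are always given in the order Naïve, ConA+Veh, ConA+TCDD, then ConA+FICZ. Levels are therefore given as counts per 1000000 UMIs of the gate (CPM) with the exact 95% Poisson interval, ratios on the log2 scale with an exact binomial interval, and both cover counting error only. With 1 library per group no difference has a replicate check, no test between groups was possible, and every comparison is between libraries. A CPM is not scaled by the length of a gene, so that levels of different genes are not compared, and more RNA per cell of other genes lowers a CPM as less RNA of the gene itself would. Between 16 and 29 cell barcodes of a library also occurred in another library. Markers of other cells were low in most gates. Higher sums were those of T cell markers in NK cells and of NK cell markers in DN T cells. In Naïve the 6 NK cell markers also reached 140 CPM in CD4 T cells, and the 6 neutrophil markers 105 CPM in DN T cells. Hepatocyte markers, given below, reached higher sums as well. In B cells, the 6 T cell markers summed to 6.35 to 29.0 CPM and the 7 phagocyte markers to 10.5 to 14.9 CPM. B cell markers summed to 3876 to 8490 CPM there. *Siglech*, *Kdr* and *Tnfrsf17* were at 0 in B cells, but other markers of their lists were detected. The 4 endothelial markers, *Kdr* among them, summed to 27.8 to 90.8 CPM. The 4 plasma cell markers, *Tnfrsf17* among them, summed to 8.50 to 25.4 CPM. The plasmacytoid dendritic cell markers, *Siglech* among them, reached at most 5.19 CPM. In NK cells *Cd3d*, *Cd3e* and *Trac* were at 0 by the rule, but the 6 T cell markers together summed to 201 to 596 CPM. That sum was 596 CPM in Naïve and 201 CPM in ConA+Veh, against 2621 to 3965 CPM of NK cell markers over the libraries. The 6 NK cell markers summed to 137 to 366 CPM in DN T cells. In CD8 T cells the 6 B cell markers summed to 10.0 to 22.5 CPM. The 6 hepatocyte markers summed to 63.2, 42.2, 1.89 and 137 CPM in B cells and 86.5, 18.7, 2.80 and 213 CPM in DN T cells of the 4 libraries. Their part in the results was not tested.

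Since the libraries differ in AhR ligands and the genes are grouped around Myc, the start-site windows of the genes were searched for the E-box letters of Myc, CACGTG, and for the core letters of the AhR response element, GCGTG, on both strands. Neither string contains the other. Of the 10 genes 7 had at least 1 window of 300 bases in the RefSeq table (build GRCm38.p6), and *Myc*, *Npm1* and *Fbl* had none. CACGTG lay in 2 of the 7 genes, *Eif4a1* and *Eif5a*, against 8.09% of 27025 genes and 7.15% of 32851 windows in the table. GCGTG lay in 5 of the 7, *Eif5a*, *Ncl*, *Nop58*, *Odc1* and *Ptma*, against 35.2% of genes and 32.4% of windows. A match is a description of the letters and says nothing of binding in these cells. The 3 E-box matches are shown with 12 bases on either side, on the strand of the gene, with the E-box in capitals.
*Eif4a1*, chr11:69672595-69672624, minus strand: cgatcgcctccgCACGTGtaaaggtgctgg
*Eif5a*, chr11:69921443-69921472, minus strand: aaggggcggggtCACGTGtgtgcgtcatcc
*Eif5a*, chr11:69920791-69920820, minus strand: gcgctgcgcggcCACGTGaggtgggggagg

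The windows of *Ncl* and *Odc1* are shown whole, as those with more than 1 GCGTG whose intervals for ConA+TCDD over ConA+Veh lay above 0 in B, CD8 T and DN T cells. Capitals mark GCGTG or its reverse complement CACGC. *Ncl* has 2 matches and *Odc1* has 3. *Ptma* also has a window with 2, and *Eif5a* has 1 in each of several windows, and these are not shown. Whether the matches go with the ratios was not tested.
*Ncl*, chr1:86359406-86359705, minus strand: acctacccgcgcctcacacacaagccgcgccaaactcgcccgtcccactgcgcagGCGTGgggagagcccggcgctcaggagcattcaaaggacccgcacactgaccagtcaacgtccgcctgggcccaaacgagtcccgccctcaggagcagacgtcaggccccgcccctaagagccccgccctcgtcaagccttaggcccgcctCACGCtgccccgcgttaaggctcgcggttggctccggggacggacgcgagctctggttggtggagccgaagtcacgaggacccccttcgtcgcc
*Odc1*, chr12:17544623-17544922, plus strand: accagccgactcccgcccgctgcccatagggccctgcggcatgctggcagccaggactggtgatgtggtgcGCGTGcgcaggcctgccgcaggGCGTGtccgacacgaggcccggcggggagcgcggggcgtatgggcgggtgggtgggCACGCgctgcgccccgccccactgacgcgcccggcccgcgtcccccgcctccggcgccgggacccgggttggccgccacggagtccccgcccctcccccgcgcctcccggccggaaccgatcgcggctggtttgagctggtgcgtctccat

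Across the 4 libraries *Myc* differed in another way than the 9 biosynthesis genes. In ConA+Veh the 9 were all higher than in Naïve in B cells and in T cells, by 0.16 to 1.5 on the log2 scale and with *Nop56* in B cells alone having an interval that reached 0, whereas *Myc* was 3.30-fold lower in B cells. In ConA+TCDD the ratio to ConA+Veh had its whole interval above 0 for all 10 genes in B cells. That held for 14.7% of all genes, a share not matched for UMI count. Only 1 gene, *Nop58*, was at least 1.5-fold higher there (3.43% of all genes). In DN T cells 6 of the 10 were at least 1.5-fold higher in ConA+TCDD, where 6.96% of all genes were, and 2 of the 10 when cells without a *Cd52* UMI were left out (3.15% of all genes). In ConA+FICZ *Myc* was 2.03-fold higher than in ConA+Veh in B cells, with the other 9 genes between −0.12 and 0.30, and *Npm1* and *Odc1* were lower in NK cells.

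*Myc* (chromosome 15, 61985391 to 61990374, plus strand; this and the other gene positions are on GRCm38) had its highest level of all gates and libraries in B cells of untreated mice. In B cells it stood at 309 (288 to 331), 93.7 (85.1 to 103), 118 (104 to 134) and 190.3 (177 to 204) CPM in Naïve, ConA+Veh, ConA+TCDD, then ConA+FICZ, from 827, 433, 250 and 809 UMIs. Naïve was highest, ConA+FICZ second, and the intervals of ConA+Veh and ConA+TCDD stood lowest and did not overlap. On the log2 scale ConA+Veh over Naïve gave −1.72 (−1.89 to −1.55), ConA+TCDD over ConA+Veh gave 0.33 (0.10 to 0.56), and ConA+FICZ over ConA+Veh gave 1.02 (0.85 to 1.19). The TCDD and FICZ ratios share the ConA+Veh library, and so do all pairs of them below. In ConA+Veh over Naïve only 2.38% of the 6085 genes tested in B cells had a lower ratio than *Myc*.

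T and NK cells ranged from 54.3 to 124 CPM of *Myc*. In CD8 T cells it stood at 95.5 (74.2 to 121), 79.7 (72.1 to 87.9), 93.0 (83.0 to 104) and 116 (105 to 127) CPM in Naïve, ConA+Veh, ConA+TCDD, then ConA+FICZ, so that Naïve and ConA+Veh overlapped and ConA+FICZ was above ConA+Veh. CD4 T cells had 77.1 (50.8 to 112), 56.9 (44.9 to 71.3), 56.6 (43.3 to 72.6) and 124 (104 to 148) CPM, with ConA+FICZ above both other ConA libraries. In DN T cells the level was 74.3 (56.0 to 96.8), 69.0 (56.3 to 83.6), 121 (106 to 138) and 86.9 (71.7 to 104) CPM, and ConA+TCDD was the highest library there. NK cells had 77.2 (45.8 to 122), 63.4 (46.8 to 84.1), 54.3 (37.1 to 76.6) and 77.8 (55.6 to 106) CPM from 18 to 48 UMIs a library, and all 4 intervals overlapped, so that no difference was detectable at this depth. Of the 20 levels (5 gates in 4 libraries) put in order, B cells of Naïve and B cells of ConA+FICZ stood apart from their neighbours, whereas the intervals of 17 of the 19 neighbouring pairs overlapped. The highest level was 5.69-fold the lowest.

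The share of cells with a *Myc* UMI was compared after each cell had been thinned to 1000 UMIs, since depth sets such a share. It was 21.0% (18.5 to 23.6%) of 1054 B cells in Naïve, 8.00% (6.16 to 10.2%) of 750 in ConA+Veh, 10.7% (7.75 to 14.3%) of 374 in ConA+TCDD and 17.8% (15.1 to 20.7%) of 743 in ConA+FICZ, with exact binomial intervals and with 31 to 65 shallower cells left out. Without thinning the shares were 32.4%, 26.3%, 27.3% and 41.8%. The order of the libraries at 1000 UMIs was thus that of the CPM, with fewer positive B cells in ConA+Veh than in Naïve. Neutrophils, read as background, had a *Myc* UMI in 1 of 20 cells of Naïve, 0 of 96 in ConA+Veh (which allows up to 3.12%, taking 3 positive cells of the total as the limit that a count of 0 allows), 0 of 32 in ConA+TCDD (up to 9.38% by the same limit) and 1 of 233 in ConA+FICZ at the same depth. In thinned CD8 T cells the share was 5.95% (2.89 to 10.7%), 6.27% (4.06 to 9.18%), 11.7% (8.06 to 16.1%) and 10.7% (7.14 to 15.3%) in Naïve, ConA+Veh, ConA+TCDD, then ConA+FICZ. In NK cells it lay between 3.75% and 5.41%. The *Myc* UMIs of B cells were spread unevenly: the B cells with the most, 10 in each 100, held 54.0% to 67.2% of them, and the cell with the most had 14, 10, 20 and 17 in the 4 libraries.

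**Figure D1:**
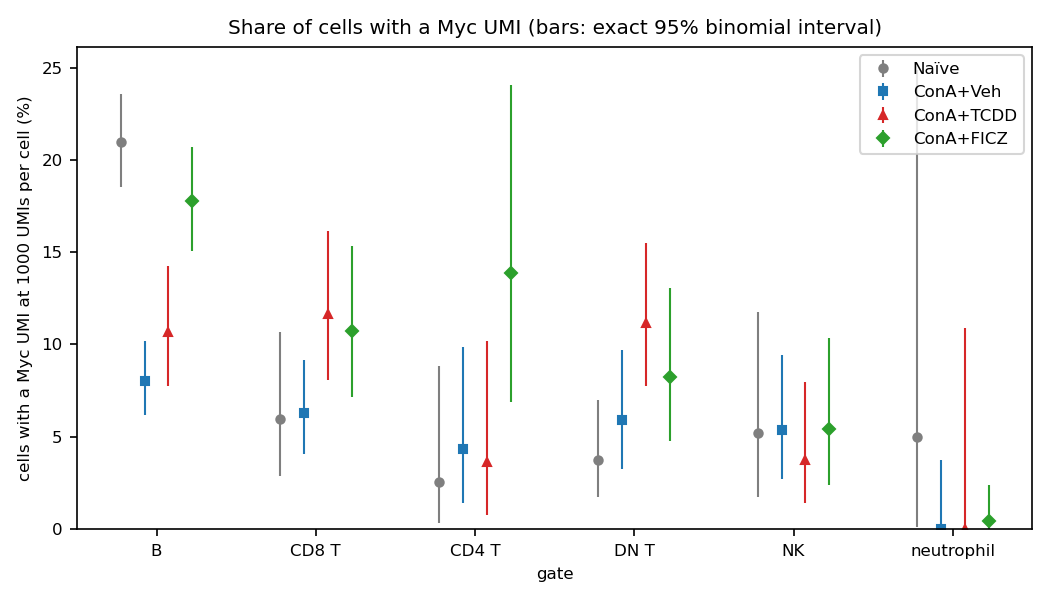
Percent of cells with at least 1 Myc UMI after thinning each cell to 1000 UMIs (vertical axis) by gate (horizontal axis) in the 4 libraries, with exact 95% binomial intervals as bars. In the B gate Naïve (21.0%) and ConA+FICZ (17.8%) stand above ConA+TCDD (10.7%) and ConA+Veh (8.00%), and the neutrophil gate serves as background.

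*Ptma* (chromosome 1, 86526726 to 86530712, plus strand) encodes prothymosin alpha, a small acidic nuclear protein of proliferating cells. Its level was 2339.7 (2282 to 2398), 4226 (4167 to 4286), 4432 (4343 to 4522) and 3889 (3830.2 to 3949) CPM in B cells of Naïve, ConA+Veh, ConA+TCDD, then ConA+FICZ, 1962, 4823, 5111 and 5185 CPM in CD8 T cells and 1815, 3319, 3463 and 2728 CPM in NK cells. All 3 ConA libraries were above Naïve in each of these gates with no overlap of intervals, and in NK cells ConA+FICZ stood between Naïve and the other ConA libraries. For ConA+Veh over Naïve the log2 ratio was 0.85 (0.81 to 0.89) in B cells, 1.30 (1.22 to 1.38) in CD8 T cells, 0.81 (0.72 to 0.91) in CD4 T cells and 0.87 (0.72 to 1.02) in NK cells. For ConA+TCDD over ConA+Veh it was 0.07 (0.03 to 0.10) in B cells and 0.06 (−0.02 to 0.15) in NK cells, and for ConA+FICZ over ConA+Veh −0.12 (−0.15 to −0.09) and −0.28 (−0.38 to −0.19). CD4 T cells had 3024, 5316, 5687 and 4903 CPM and DN T cells 2207, 4282, 4406 and 3865 CPM, again lowest in Naïve. The TCDD ratio of *Ptma* was the smallest of the 10 genes in B cells.

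**Figure D2:**
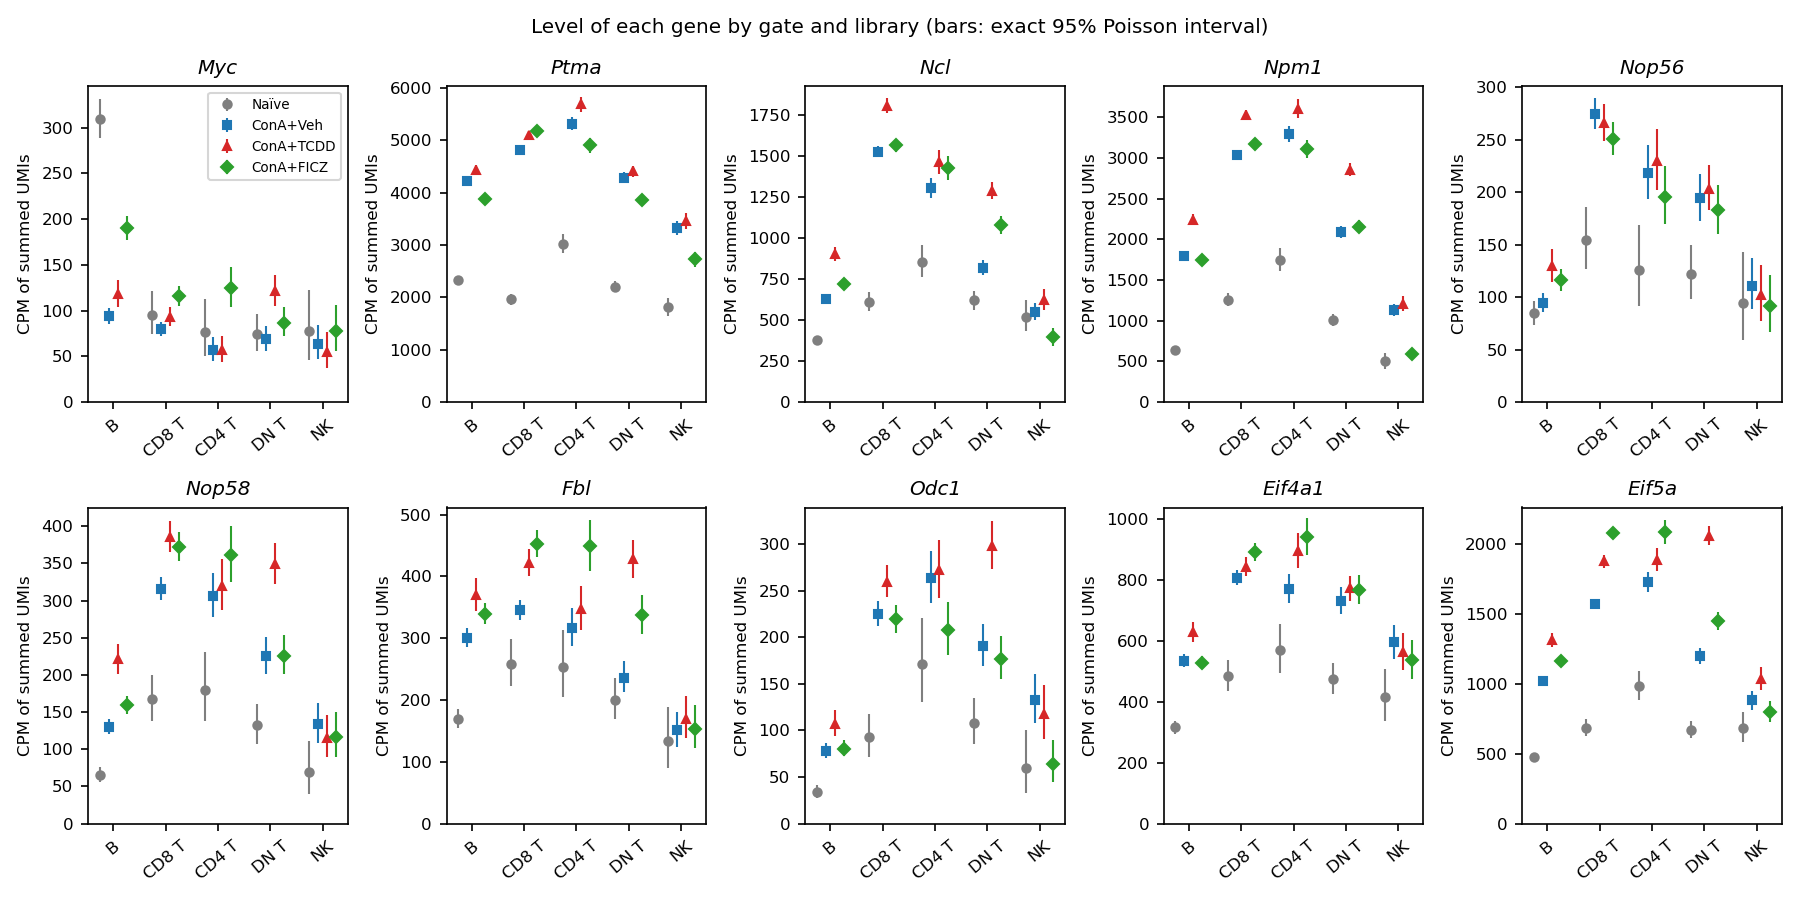
Level of each of the 10 genes in CPM of summed UMIs (vertical axes, each from 0) in 5 gates (horizontal axes), with a point for each library and its exact 95% Poisson interval as a bar. For 9 genes the Naïve points are the lowest in most gates, whereas Myc is highest in Naïve B cells (309 CPM).

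Nucleolin (*Ncl*, chromosome 1, 86344719 to 86359400, minus strand) binds ribosomal RNA and its precursors. In B cells it was at 378 (355 to 402), 625 (603 to 649), 901 (861 to 942) and 718 (693 to 744) CPM in Naïve, ConA+Veh, ConA+TCDD, then ConA+FICZ, with no overlap between any of the libraries. CD8 T cells had 612, 1527, 1806 and 1566 CPM, in which ConA+TCDD was highest and ConA+Veh and ConA+FICZ overlapped. CD4 T cells had 857, 1302, 1463 and 1426 CPM and DN T cells 619 (564 to 678), 820.2 (775 to 867), 1288 (1235 to 1341) and 1077 (1022 to 1135) CPM, the latter without overlap between libraries. In NK cells the level was 519 (431 to 620.4), 551 (499.6 to 607), 624 (562 to 692) and 395 (342 to 453) CPM, and here ConA+FICZ was the lowest library. The log2 ratio for ConA+TCDD over ConA+Veh was 0.53 (0.44 to 0.61) in B cells, 0.24 (0.19 to 0.29) in CD8 T cells and 0.65 (0.55 to 0.75) in DN T cells. For ConA+FICZ over ConA+Veh it was 0.20 (0.13 to 0.27) in B cells and −0.48 (−0.73 to −0.24) in NK cells.

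Nucleophosmin (*Npm1*, chromosome 11, 33152287 to 33163206, minus strand) is an abundant nucleolar chaperone of ribosome assembly. In B cells it stood at 636 (606 to 667), 1799.7 (1761 to 1839), 2241 (2177 to 2305) and 1742 (1702 to 1782) CPM in Naïve, ConA+Veh, ConA+TCDD, then ConA+FICZ, in CD8 T cells at 1258, 3035, 3528 and 3172 CPM and in NK cells at 498 (411 to 597), 1128 (1053 to 1206), 1208 (1121 to 1300.2) and 595 (530.2 to 666) CPM. ConA+TCDD was highest in all 3 gates, with its interval overlapping ConA+Veh in NK cells, and the NK cells of ConA+FICZ were close to those of Naïve. In CD4 T cells it was 1745, 3298, 3603 and 3108 CPM and in DN T cells 1003, 2088, 2855 and 2151 CPM. The ratio of ConA+Veh over Naïve was 1.5 (1.42 to 1.58) in B cells, the highest of the 10 genes there, and 1.18 (0.90 to 1.47) in NK cells. ConA+FICZ over ConA+Veh gave −0.05 (−0.09 to −0.0018) in B cells, 0.06 (0.03 to 0.10) in CD8 T cells and −0.92 (−1.12 to −0.73) in NK cells, which is 1.89-fold lower in the last.

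*Nop56*, *Nop58* and *Fbl* encode 3 of the core proteins of the box C/D particles that methylate ribosomal RNA, of which fibrillarin (*Fbl*) is the methyltransferase. *Nop58* (chromosome 1, 59684971 to 59719044, plus strand) was at 65.8 (56.4 to 76.3), 130.1 (119.9 to 141), 221 (201 to 242) and 159.5 (148 to 172) CPM in B cells of Naïve, ConA+Veh, ConA+TCDD, then ConA+FICZ, and ConA+TCDD stood above all other libraries. *Nop56* (chromosome 2, 130274430 to 130279313, plus strand) was at 84.5 (73.8 to 96.2), 94.6 (85.9 to 104), 129 (114 to 146) and 116 (106 to 127) CPM, with Naïve and ConA+Veh overlapping. *Fbl* (chromosome 7, 28169710 to 28179269, plus strand) was at 169 (154 to 186), 301 (285 to 317), 370.1 (345 to 397) and 339.7 (322 to 358) CPM, lowest in Naïve.

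The 3 genes, which belong to the same particle, differed in their ratios. For ConA+Veh over Naïve in B cells *Nop58* gave 0.98 (0.74 to 1.23), *Fbl* 0.83 (0.67 to 0.98) and *Nop56* 0.16 (−0.07 to 0.40), whereas in CD8 T cells *Nop58* gave 0.92 (0.65 to 1.20), *Nop56* 0.83 (0.55 to 1.12) and *Fbl* 0.42 (0.20 to 0.64). *Nop56* was thus the gene with the smallest ratio in B cells apart from *Myc*, and *Fbl* in CD8 T cells. In the ConA+TCDD comparison *Nop58* had 0.76 (0.59 to 0.94) in B cells, the single gene of the 10 past 1.5-fold there, and *Nop56* 0.45 (0.23 to 0.67). CD8 T cells had 154 (127 to 186), 275 (261 to 289.8), 266 (249 to 284) and 251 (235 to 267) CPM of *Nop56*, 167, 316, 385 and 372 CPM of *Nop58* and 258, 345, 422 and 453 CPM of *Fbl* in the same order of libraries. In DN T cells the levels were 122, 194, 204 and 183 CPM of *Nop56*, 132, 225, 349 and 226 CPM of *Nop58* and 200.1, 236, 428 and 337 CPM of *Fbl*, so that *Nop58* and *Fbl* stood highest in ConA+TCDD and the intervals of *Nop56* overlapped between the ConA libraries. NK cells had 94.4, 111, 102 and 91.4, 68.7, 134, 115 and 117 and 133, 151, 169.7 and 154 CPM of the 3 genes, and for *Nop56* and *Fbl* all intervals overlapped there. In CD4 T cells they were at 126, 218, 229.9 and 196, 179.9, 306, 319.8 and 361 and 254, 317, 348 and 449 CPM. The exons of *Nop56* overlap those of *Idh3b* on the opposite strand, and the sources used here do not say how strand was used in counting.

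Ornithine decarboxylase (*Odc1*, chromosome 12, 17544794 to 17551505, plus strand) makes putrescine, the first polyamine, and is a long known target of Myc. In B cells it stood at 34.0 (27.4 to 41.8), 77.9 (70.1 to 86.4), 107 (93.7 to 122) and 80.2 (71.9 to 89.2) CPM in Naïve, ConA+Veh, ConA+TCDD, then ConA+FICZ, in CD8 T cells at 92.7, 225, 259.6 and 219 CPM, and in DN T cells at 108 (85.7 to 135), 190.2 (169 to 214), 298 (273 to 324) and 177 (155 to 201) CPM. Naïve was lowest in each gate, and ConA+TCDD in DN T cells was the highest of its 20 levels. CD4 T cells had 171, 264, 272 and 208 CPM. NK cells had 60.1 (32.8 to 101), 132 (108 to 161), 117 (91.1 to 148) and 64.2 (44.2 to 90.1) CPM, with ConA+FICZ at the level of Naïve. The ratio of ConA+Veh over Naïve was 1.20 (0.86 to 1.54) in B cells and 1.28 (0.92 to 1.66) in CD8 T cells. ConA+TCDD over ConA+Veh gave 0.46 (0.21 to 0.70) in B cells, 0.21 (0.08 to 0.33) in CD8 T cells and 0.65 (0.44 to 0.86) in DN T cells, and ConA+FICZ over ConA+Veh gave 0.04 (−0.18 to 0.26), −0.04 (−0.17 to 0.09) and −0.11 (−0.36 to 0.15). In NK cells the FICZ ratio was −1.04 (−1.66 to −0.46), from 33 UMIs in ConA+FICZ and 100 in ConA+Veh.

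The initiation factors were *Eif4a1* (chromosome 11, 69666936 to 69672423, minus strand), the helicase that unwinds the start of a messenger RNA, and *Eif5a* (chromosome 11, 69916714 to 69921958, minus strand), which carries the polyamine-derived residue hypusine and helps the ribosome past difficult stretches. *Eif4a1* was at 316 (295 to 338), 534 (513 to 556), 629 (595 to 663) and 529 (508 to 551) CPM in B cells of Naïve, ConA+Veh, ConA+TCDD, then ConA+FICZ, and ConA+Veh and ConA+FICZ overlapped. *Eif5a* was at 478 (452 to 505), 1019 (989.7 to 1048), 1312 (1264 to 1362) and 1165 (1133 to 1198) CPM in B cells, with no overlap of intervals, and at 670.5 (613 to 732), 1200.5 (1146 to 1257), 2062 (1996 to 2129.7) and 1447 (1383 to 1514) CPM in DN T cells, in which ConA+TCDD was above the rest. For ConA+Veh over Naïve, *Eif5a* gave 1.09 (1.0 to 1.18) in B cells and 1.20 (1.07 to 1.34) in CD8 T cells, and *Eif4a1* 0.76 (0.64 to 0.87) and 0.74 (0.58 to 0.90). ConA+TCDD over ConA+Veh gave 0.78 (0.70 to 0.86) for *Eif5a* and 0.08 (−0.04 to 0.19) for *Eif4a1* in DN T cells, so that *Eif4a1* did not follow *Eif5a* there. CD8 T cells held 485, 808, 844 and 893 CPM of *Eif4a1* and 684, 1575, 1877 and 2080.2 CPM of *Eif5a*, CD4 T cells 571, 773, 896 and 942 and 982, 1731, 1888 and 2087 CPM, and NK cells 416, 596, 563 and 537 and 682, 882, 1038 and 799 CPM. In both T cell subsets ConA+FICZ was the highest library for *Eif4a1* and *Eif5a*, but for *Eif4a1* its interval overlapped that of ConA+TCDD in both. In CD8 T cells ConA+FICZ over ConA+Veh gave 0.40 (0.36 to 0.45) for *Eif5a* and 0.14 (0.08 to 0.21) for *Eif4a1*.

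**Figure D3:**
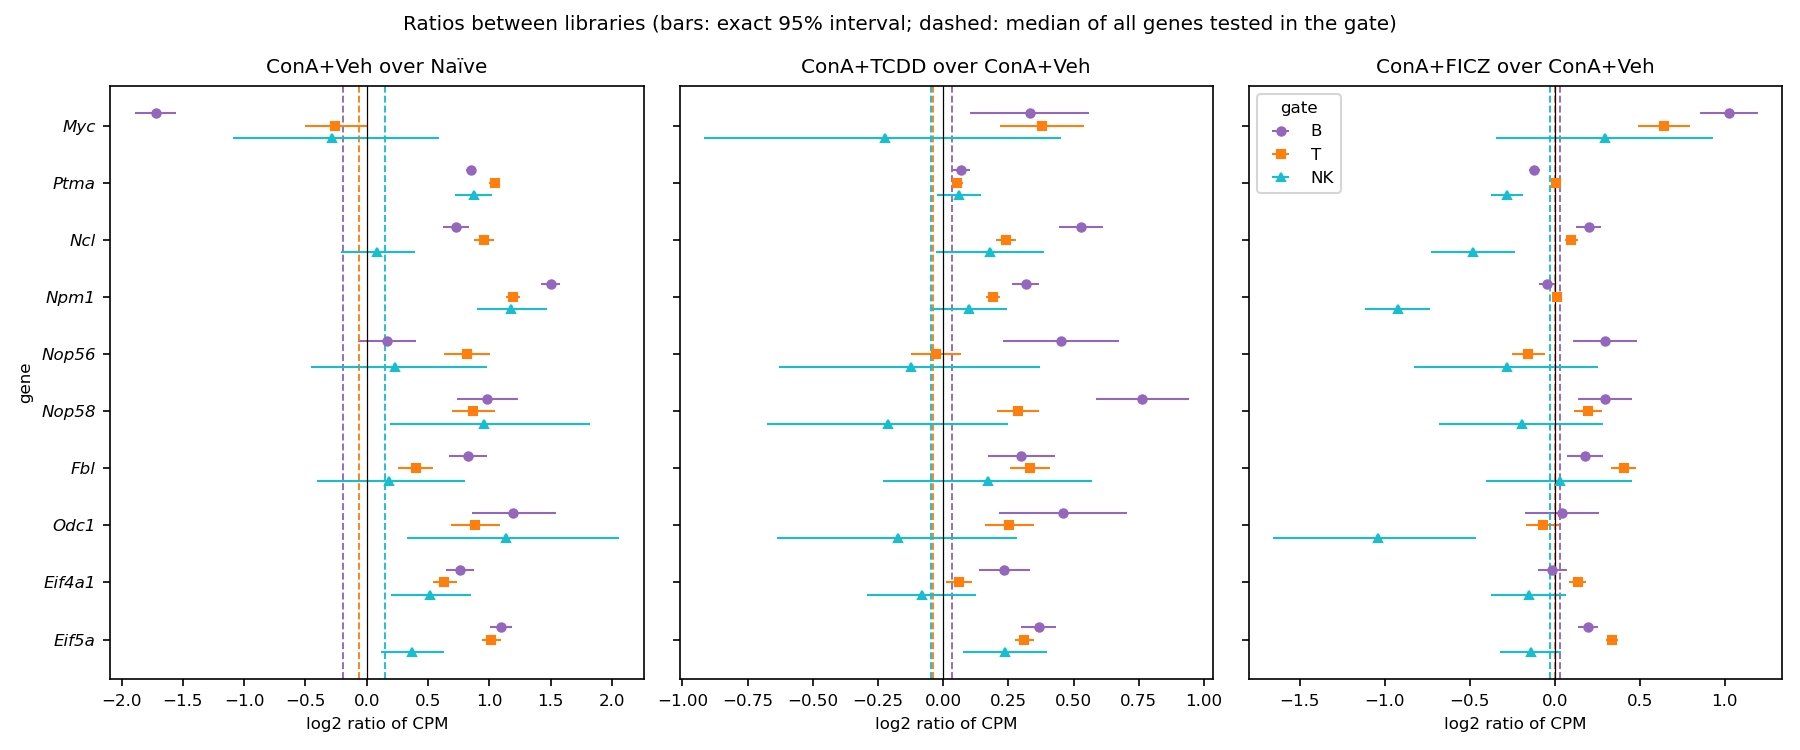
Log2 ratio of CPM (horizontal axes) of each gene (vertical axis) in B, T and NK cells for the 3 comparisons, with exact 95% intervals as bars and the median of all genes tested in each gate as a dashed line. In ConA+Veh over Naïve 9 genes lie above 0 in B and T cells and Myc lies at −1.72 in B cells, and in ConA+FICZ over ConA+Veh Myc lies at 1.02 in B cells.

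The comparison of ConA+Veh with Naïve asks what ConA hepatitis does to this programme. In B cells the median of the 10 ratios was 0.84, against −0.20 for the 6085 genes with at least 100 UMIs in both libraries together, a minimum that all 10 passed. At least 1.5-fold higher were 8 of 10, where 17.1% of all genes were, and 1, *Myc*, was at least 1.5-fold lower, where 30.8% were. In T cells the median was 0.88 (all genes −0.06), with 8 of 10 higher by that measure (19.4% of all genes) and 0 lower (23.4%). CD8 T cells had 1.06 (all genes 0.18) and 8 higher (30.5%), CD4 T cells 0.70 (all genes 0.23) and 7 higher (28.6%), and DN T cells 0.72 (all genes 0.04) and 7 higher (20.6%). Cells were split by a list of 10 cell cycle genes, *Mki67*, *Top2a*, *Birc5*, *Cdk1*, *Ccnb2*, *Ube2c*, *Cdca8*, *Kif11*, *Tpx2* and *Nusap1*. Among DN T cells with UMIs of fewer than 2 different genes of that list (non-cycling cells) the median was 0.50 (all genes 0.03) and 4 were higher (17.3%). Among non-cycling B cells the median was 0.81 (all genes −0.22), among non-cycling CD8 T cells 0.93 (all genes 0.23). In these CD8 T cells *Myc* too was at least 1.5-fold lower, at −0.64 with its whole interval below 0. The median was 0.66 (all genes 0.22) among non-cycling CD4 T cells and 0.28 (all genes 0.12) among non-cycling NK cells. Of the 10 genes 8 and 6 passed the UMI minimum in these gates, and 7 of the 10 intervals spanned 0 in the NK cells. In NK cells 9 of 10 genes passed the UMI minimum, *Myc* did not, the median over the 10 was 0.44 (all genes 0.15), and 4 were higher (23.9%), namely *Npm1*, *Odc1*, *Nop58* and *Ptma*. The share of cells with UMIs of at least 2 different cell cycle genes (cycling cells) differed greatly between the libraries as well, at 0.553, 14.7, 12.7 and 7.83% of B cells and 2.35, 74.2, 54.8 and 59.3% of CD8 T cells in Naïve, ConA+Veh, ConA+TCDD, then ConA+FICZ. These and the later shares of cycling cells were not thinned to equal depth, though depth sets such a share too.

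ConA+TCDD set against ConA+Veh asks what an AhR ligand does to it. In B cells all 10 intervals lay above 0, where 14.7% of 5483 genes did. Whether an interval lies above 0 depends on the UMI count too, and the shares of all genes were not matched for it. The differences were small, with a median of 0.35 (all genes 0.03) and 1 gene, *Nop58*, at least 1.5-fold higher (3.43%). In CD8 T cells the median was 0.22 (all genes −0.01) with 8 intervals above 0 (11.3%) and 0 genes past 1.5-fold (1.31%), and in CD4 T cells 0.11 (all genes −0.01) with 5 intervals above 0 (6.16%). DN T cells differed more, with a median of 0.64 (all genes −0.09) and 6 of 10 at least 1.5-fold higher (6.96%): *Fbl* at 0.86 (0.67 to 1.04), *Myc* at 0.81 (0.47 to 1.17), *Eif5a*, *Odc1*, *Ncl* and *Nop58*. NK cells had a median of −0.01 (all genes −0.05) and 1 interval above 0 (8.84%), that of *Eif5a* at 0.24 (0.08 to 0.40). For *Myc* in NK cells, which missed the UMI minimum there, the interval ran from −0.92 to 0.45, and a difference within it was not detectable. Over all T cells the median was 0.25 (all genes −0.04) with 9 intervals above 0 (11.9%) and 0 genes past 1.5-fold (1.52%), and it was 0.38 after thinning each cell to 1000 UMIs and 0.61 without cycling cells.

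ConA+FICZ set against the same ConA+Veh library gave another order. *Myc* had the highest ratio of the 10 genes in B cells at 1.02 (0.85 to 1.19), in T cells at 0.64 (0.49 to 0.80) and in CD4 T cells at 1.13 (0.71 to 1.56), and it was the only gene past 1.5-fold in each, where 3.44%, 1.88% and 2.78% of all genes were. The medians were 0.18, 0.12 and 0.18 in these gates, against 0.03, −0.0012 and 0.01 for all genes. In NK cells the median was −0.24 (all genes −0.03), 4 intervals lay below 0 (13.4%), those of *Odc1*, *Npm1*, *Ncl* and *Ptma*, and *Odc1* and *Npm1* were at least 1.5-fold lower (5.71%). Side by side, the TCDD and FICZ ratios in B cells were 0.33 and 1.02 for *Myc*, 0.76 and 0.29 for *Nop58*, 0.32 and −0.05 for *Npm1* and 0.46 and 0.04 for *Odc1*. Each pair of values shares the ConA+Veh library, and without the dose of FICZ the doses could not be matched. After thinning each cell to 1000 UMIs the median for ConA+FICZ over ConA+Veh in B cells was 0.04, the ratio of *Eif5a* turned to −0.12 and that of *Odc1* to −0.52, whereas that of *Myc* was 1.22. Cycling cells made up 14.7% of NK cells in ConA+Veh and 4.60% in ConA+FICZ, and among non-cycling NK cells *Npm1* had −0.86 (−1.10 to −0.62) and *Odc1* −1.42 (−2.30 to −0.62). Among these cells 7 of the 10 genes passed the UMI minimum, and *Odc1* did not.

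Cycling and non-cycling cells were then compared within each library, so that no difference between libraries enters. In CD8 T cells the cycling cells numbered 288, 148 and 144 in ConA+Veh, ConA+TCDD and ConA+FICZ, and the 4 of Naïve were too few. They were deeper than the other CD8 T cells, with a median of 13039.5 against 5444.5 UMIs in ConA+Veh, 16273.5 against 5919 in ConA+TCDD and 20011 against 6289 in ConA+FICZ, and the part of depth in the following ratios was not tested. The median ratio of cycling over non-cycling CD8 T cells was 0.24, −0.03 and 0.06, with 0.18, 0.19 and 0.11 for all genes. Other gates differed from this. For the same 3 libraries B cells had medians of 0.31, 0.46 and 0.27 (all genes 0.10, 0.16 and 0.09). DN T cells had 0.49, −0.07 and −0.03 (all genes 0.09, 0.10 and 0.06). CD4 T cells had 0.30, 0.39 and −0.08 (all genes 0.19, 0.19 and 0.06). The median for NK cells was 0.72 with vehicle and 0.78 with TCDD (all genes 0.0035 and −0.01). These rest on 33 and 21 cycling NK cells, and 8 and 6 of the 10 genes passed the UMI minimum that the genes behind the second values all passed. With FICZ the 8 cycling NK cells were too few. *Ptma* was higher in cycling CD8 T cells of all 3 libraries, at 0.54 (0.48 to 0.60), 0.28 (0.23 to 0.34) and 0.35 (0.30 to 0.41), and so was *Ncl*, at 0.56 (0.45 to 0.67), 0.29 (0.20 to 0.38) and 0.15 (0.05 to 0.24). *Myc* went the other way in both ligand libraries, at −0.79 (−1.13 to −0.44) in ConA+TCDD and −0.64 (−0.94 to −0.34) in ConA+FICZ. In ConA+Veh its interval spanned 0, at 0.35 (−0.10 to 0.82). It was not the only gene to do so. In ConA+TCDD 5 of the 10 intervals lay above 0 and 4 below, with *Fbl* at −0.55 (−0.71 to −0.39), *Eif5a* at −0.34 (−0.42 to −0.26) and *Odc1* at −0.24 (−0.46 to −0.02). In ConA+FICZ 4 lay above and 2 below, with *Nop58* at −0.24 (−0.41 to −0.06). In DN T cells *Myc* gave 0.49 (−0.10 to 1.08), −0.86 (−1.39 to −0.36) and −1.02 (−1.75 to −0.35), with both ligand libraries below 0. In ConA+TCDD 4 of the 10 intervals lay above 0 in DN T cells and 4 below. Those below were *Myc*, *Odc1* at −0.78 (−1.11 to −0.47), *Fbl* at −0.49 (−0.74 to −0.25) and *Eif5a* at −0.35 (−0.46 to −0.24). When cells with an *Mki67* UMI were taken as cycling instead, *Ptma* stayed above 0 in CD8 T cells of the 3 libraries, whereas *Ncl* turned to −0.25 (−0.33 to −0.18) in ConA+FICZ, and *Myc* in ConA+Veh lay wholly above 0 at 0.64 (0.23 to 1.07). In DN T cells *Myc* was by that mark at 0.72 (0.14 to 1.31), −0.76 (−1.36 to −0.19) and −0.45 (−1.21 to 0.24). The medians of B and NK cells were not taken by that mark, and some ratios changed sign there. With TCDD *Npm1* moved from 0.57 to −0.03 (−0.15 to 0.08) in B cells. In NK cells it moved from 1.15 to −0.06 (−0.31 to 0.18). With FICZ *Nop58* moved from 0.34 to −0.13 (−0.44 to 0.18) in B cells. *Ptma* and *Eif4a1* stayed wholly above 0 in both gates with TCDD, and *Npm1* did so with vehicle.

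The ratio between libraries therefore depended on which cells were read. Among non-cycling CD8 T cells *Myc* stood at 101 (78.0 to 128), 64.6 (47.3 to 86.2), 137 (112 to 164) and 161 (135 to 191) CPM in Naïve, ConA+Veh, ConA+TCDD, then ConA+FICZ, and both ligand libraries were above ConA+Veh. Their log2 ratios over ConA+Veh were 1.08 (0.57 to 1.61) for ConA+TCDD and 1.32 (0.82 to 1.83) for ConA+FICZ, whereas among cycling CD8 T cells they were −0.05 (−0.31 to 0.20) and 0.33 (0.10 to 0.55). In ConA+TCDD over ConA+Veh 3 of the 10 genes, *Myc*, *Odc1* at 0.79 (0.47 to 1.12) and *Fbl* at 0.67 (0.44 to 0.90), were at least 1.5-fold higher in non-cycling CD8 T cells, where 6.93% of all genes were, and the interval of *Eif4a1* lay just below 0 at −0.17 (−0.33 to −0.0024). In ConA+FICZ over ConA+Veh *Myc* was the single gene past it (6.09% of all genes). Non-cycling DN T cells had 78.4 (58.9 to 102), 58.1 (42.5 to 77.4), 139.8 (119.9 to 162) and 105 (84.5 to 128) CPM of *Myc* and 103 (80.5 to 130.0), 169 (142 to 200.3), 340.3 (309 to 374) and 187 (159 to 218) CPM of *Odc1*. There 6 genes were at least 1.5-fold higher in ConA+TCDD than in ConA+Veh (14.4% of all genes), *Ncl*, *Nop58*, *Fbl* and *Eif5a* among them, from *Odc1* at 1.01 (0.73 to 1.30) to *Myc* at 1.27 (0.79 to 1.77).

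**Figure D4:**
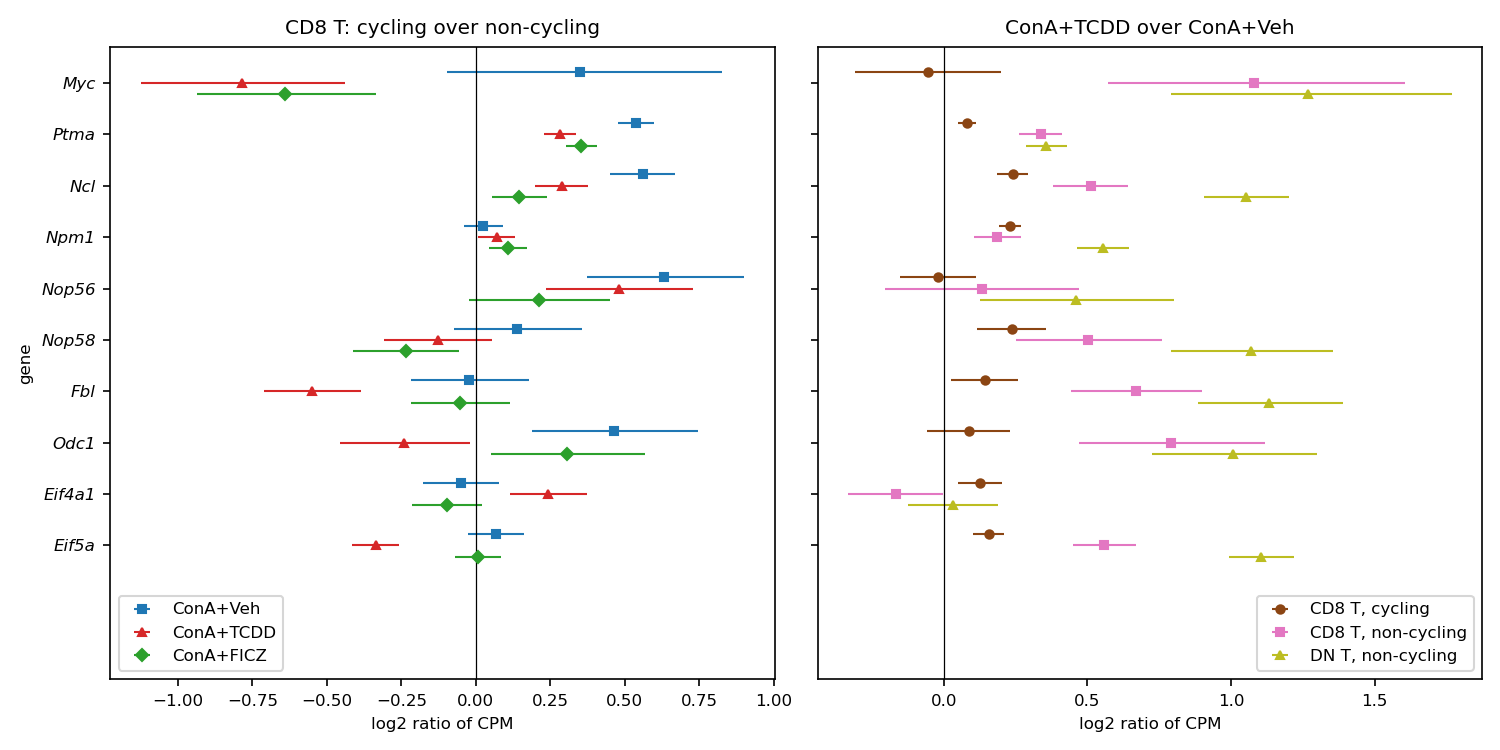
Log2 ratios of CPM (horizontal axes) of the 10 genes (vertical axis), for cycling over non-cycling CD8 T cells within 3 libraries (left) and for ConA+TCDD over ConA+Veh in cycling CD8 T, non-cycling CD8 T and non-cycling DN T cells (right), with exact 95% intervals as bars. Ptma and Ncl lie above 0 in all 3 libraries on the left (with an Mki67 UMI as the mark of cycling Ncl in ConA+FICZ is at −0.25). Myc lies with its whole bar below 0 in ConA+TCDD and ConA+FICZ. So do Fbl, Eif5a and Odc1 in ConA+TCDD and Nop58 in ConA+FICZ. On the right the non-cycling DN T cells lie highest for 9 of the 10 genes.

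The DN T gate of ConA+TCDD held many cells with no UMI of *Cd52*, a glycoprotein gene that lymphocytes express strongly. Such cells made up 8.37, 8.73, 40.8 and 15.3% of DN T cells, 8.66, 10.3, 23.4 and 9.50% of B cells and 10.0, 4.38, 16.7 and 6.17% of CD8 T cells in Naïve, ConA+Veh, ConA+TCDD, then ConA+FICZ. Within the DN T cells of ConA+TCDD, the 115 cells without it had 6 of 10 intervals above 0 relative to the 167 cells with it (22.2% of all genes), at a median log2 ratio of 0.49, and the corresponding medians were 0.59 in Naïve (22 and 241 cells), −0.22 in ConA+Veh (22 and 230 cells) and 0.38 in ConA+FICZ (31 and 172 cells). With the cells lacking *Cd52* left out of both libraries, the median of ConA+TCDD over ConA+Veh in DN T cells was 0.36 in place of 0.64, 6 of 10 intervals lay above 0 (13.9% of all genes), and 2 genes, *Myc* and *Fbl*, in place of 6 were at least 1.5-fold higher (3.15%). *Myc* then gave 0.65 (0.27 to 1.03), *Odc1* 0.18 (−0.07 to 0.43) and *Eif5a* 0.54 (0.44 to 0.63). Among non-cycling DN T cells with a *Cd52* UMI, 130 and 162 in the 2 libraries, the median was 0.48 in place of 1.03 and 4 genes were at least 1.5-fold higher (7.04% of all genes), *Myc* at 1.19 (0.66 to 1.73), *Fbl*, *Eif5a* and *Ncl*, while *Odc1* was at 0.42 (0.07 to 0.76) and *Nop58* at 0.55 (0.22 to 0.88). In B cells the median was 0.33 in place of 0.35 and 9 of 10 intervals lay above 0 (12.5%), the exception being *Myc* at 0.22 (−0.03 to 0.47). What sets these cells apart was not tested, and neither was their part in the difference.

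B cells with at least 2 of *Cd86*, *Mreg* and *Cd200* (activated-marker B cells) numbered 24, 33, 57 and 27 in Naïve, ConA+Veh, ConA+TCDD, then ConA+FICZ. In Naïve, 9 of the 10 genes were at least 1.5-fold higher in these 24 cells than in the other 1061 B cells, where 21.1% of all genes were, with *Npm1* at 1.52 (1.33 to 1.70) and *Nop58* at 1.42 (0.79 to 2.0). *Odc1*, among those higher, had fewer than 100 UMIs and so missed the minimum that all genes behind the 21.1% passed. *Myc* was lower in them, at −1.08 (−1.67 to −0.53), and stood at 152 (101 to 220.0) CPM against 321 (299 to 344) CPM in the other B cells. The 24 cells had a median of 2993.5 UMIs and the other 1061 a median of 2108. Cycling cells were 3 of the 24 and 3 of the 1061, and these 6 had a median of 18599 UMIs. A few deep cells can thus weigh heavily in the sum of the 24, and their part in the ratios was not tested. The median of the 10 ratios of activated-marker over other B cells was 1.07 (all genes −0.08) in Naïve and smaller in the ConA libraries. It was 0.41 (all genes 0.05) in ConA+Veh, 0.49 (all genes 0.05) in ConA+TCDD and 0.10 (all genes −0.02) in ConA+FICZ. In the other libraries *Myc* in activated-marker over other B cells was at −0.13 (−0.68 to 0.37) in ConA+Veh, 0.48 (0.05 to 0.90) in ConA+TCDD and −0.14 (−0.60 to 0.28) in ConA+FICZ, so that its interval lay below 0 in Naïve only. In ConA+TCDD over ConA+Veh the activated-marker B cells had 4 of 10 genes at least 1.5-fold higher (7.01% of all genes), with *Odc1* at 0.82 (0.23 to 1.43), *Nop58* at 0.66 (0.24 to 1.09) and *Ncl* at 0.65 (0.45 to 0.85), and *Myc*, which had fewer than 100 UMIs, at 0.83 (0.21 to 1.47).

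Between cell types, CD8 T cells had more of most of these transcripts than B cells of the same library. At least 1.5-fold higher in CD8 T cells were 7, 7, 5 and 7 of the 10 genes in Naïve, ConA+Veh, ConA+TCDD, then ConA+FICZ, where 12.5%, 28.8%, 25% and 25.3% of all genes were. For *Odc1* the intervals of the 4 ratios overlapped, at 1.45 (0.97 to 1.92), 1.53 (1.36 to 1.71), 1.28 (1.06 to 1.49) and 1.45 (1.27 to 1.64). *Myc* was lower in CD8 T cells than in B cells in all 4 libraries, at −1.69 (−2.07 to −1.34), −0.23 (−0.43 to −0.03), −0.34 (−0.59 to −0.10) and −0.71 (−0.89 to −0.55). Over the 20 levels of each gene, the highest was 2.98-fold (*Eif4a1*) to 8.75-fold (*Odc1*) the lowest, and 8 of the 9 other genes had their highest level in CD8 T or CD4 T cells of a ConA library, the exception being *Odc1* in DN T cells of ConA+TCDD.

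The wider pathways were read from 6 lists of 103 further genes. For ConA+Veh over Naïve, 28 of the 91 list genes with enough UMIs in B cells were at least 1.5-fold higher and 8 lower, and 40 and 5 of 100 in T cells, beside 17.1% and 30.8% of all genes in B cells and 19.4% and 23.4% in T cells. In NK cells 8 were higher and 3 lower of 32 (23.9% and 14.6% of all genes). Of the nucleolus and ribosome assembly list 11 of 30 genes were higher and 0 lower in B cells (median 0.40), and 12 of 32 higher and 0 lower in T cells (median 0.41). *Nhp2*, a protein of the H/ACA particles that convert uridine to pseudouridine in ribosomal RNA, had the highest ratio in both, at 1.66 (1.43 to 1.89) and 1.38 (1.21 to 1.56). The nucleotide synthesis list had 10 of 16 higher and 2 lower in B cells, led by *Impdh2* of guanine nucleotide synthesis at 1.43 (1.26 to 1.60) and with *Dhodh* of pyrimidine synthesis lowest at −1.07 (−1.64 to −0.51). In T cells 10 of 18 were higher, with *Umps* of pyrimidine synthesis at 1.34 (0.98 to 1.73) and *Nme1* lowest at −0.75 (−0.95 to −0.55).

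Translation factors were mixed. In B cells 4 of 22 were higher and 1 lower, with *Eif1ax* at 1.21 (0.94 to 1.48) and *Eif4a2*, the other form of the eIF4A helicase, at −1.46 (−1.63 to −1.29). *Eif4a1* and *Eif4a2* thus stood on opposite sides of 0 in B cells, and in T cells too, where *Eif4a2* was at −1.18 (−1.35 to −1.01). Of the polyamine list *Srm*, which makes spermidine, had the highest ratio in both gates, at 1.21 (0.93 to 1.5) in B cells and 1.41 (1.22 to 1.60) in T cells. The partners and opponents of Myc gave 1 higher and 2 lower of 9 in B cells, from *Mnt* at −1.33 (−1.92 to −0.75) to *Mxd1* at 0.59 (−0.02 to 1.22), and 1 higher and 3 lower of 10 in T cells, from *Mxd4* at −1.52 (−1.82 to −1.22) to *Mxd3* at 1.95 (0.93 to 3.19). Mnt and the Mxd proteins compete with Myc for Max. Of the uptake genes, the transferrin receptor *Tfrc* led in T cells at 1.47 (1.02 to 1.95) and the amino acid carrier *Slc7a5* in B cells at 1.12 (0.49 to 1.79).

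With TCDD, 14 of 88 list genes were at least 1.5-fold higher and 1 lower than in ConA+Veh in B cells (3.43% and 3.65% of all genes), 1 of 101 were higher in T cells (1.52%), and none of 36 were in NK cells (1.49%). The nucleolus list supplied 6 of the genes in B cells out of 30 (median 0.43), led by *Ppan* at 1.10 (0.79 to 1.41), a factor of the large ribosomal subunit that was also the only list gene past 1.5-fold in T cells, at 0.60 (0.44 to 0.75). *Nme1*, a nucleoside diphosphate kinase, led the nucleotide list in B cells at 0.98 (0.65 to 1.32), and *Srm* the polyamine list at 0.69 (0.50 to 0.89). *Mxd1* was the lowest of the Myc network in B cells of both ligand libraries over ConA+Veh, at −0.86 (−1.62 to −0.15) in ConA+TCDD and −0.80 (−1.36 to −0.25) in ConA+FICZ. With FICZ, 5 of 93 list genes were higher in B cells (3.44% of all genes), 3 higher and 3 lower of 101 in T cells (1.88% and 5.36%), and 0 higher and 4 lower of 35 in NK cells (3.09% and 5.71%), with *Nme2* lowest there at −0.94 (−1.31 to −0.58). The uptake list had a median of −0.50 in T cells, from *Slc38a2* at −0.71 (−0.85 to −0.57) to *Slc1a5* at −0.01 (−0.16 to 0.13).

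The likeness of the genes was described over the 20 points (5 gates in 4 libraries), which share libraries and depth and are no replicates, with Pearson's r of log2(CPM + 1). Each of the 9 biosynthesis genes had an r of 0.85 (*Fbl*) to 0.98 (*Nop58*) with the mean of the others, and *Myc* had −0.19. Among 9814 genes the nearest to the 9 were *Serbp1*, which encodes an RNA-binding protein of ribosomes (0.98), *Hspd1*, the mitochondrial chaperonin (0.98), and *Timm8a1* of mitochondrial protein import (0.98). Nearest to *Myc* were *AC125149.3* (0.80), *Gm47230* (0.80) and *Ftx* (0.78), a long noncoding RNA, all at low levels of up to 25.4 CPM.

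Near-identical copies of some of the genes may have taken or lost reads in counting. In the annotation, *Ptma*, *Npm1*, *Odc1*, *Nop56*, *Fbl*, *Eif4a1* and *Eif5a* have 5, 4, 7, 4, 2, 3 and 1 other genes with at least 95% identity over at least 200 bases, and *Myc*, *Ncl* and *Nop58* have none. Of these copies 1 of *Odc1* (*AW146154*) and 1 of *Fbl* (within *Tulp4*) are among the genes counted. The levels of the 7 genes are uncertain by that part.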

How the data were processed

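Liver mononuclear cells of 4 groups were measured by droplet 5′ RNA sequencing with 1 library per group. The group of each library was taken from its labels. The library labelled with ConA alone was taken as ConA+Veh from the description of the design, as its label names no vehicle. The authors deposited UMI counts per gene and cell, made with Cell Ranger 3.0.2 on the mouse build mm10 per the submitters' processing notes, and the smallest cell of each library held 500 or 501 UMIs. No column was left without a sample.

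The deposited counts were summed over the cells of each marker gate. A marker counted from 1 UMI on. B, T and NK cells needed 2 of their own 6 markers, and cells with 3 or more phagocyte or neutrophil markers, or 2 or more of another cell type or lineage, were left out. This did not hold for hepatocyte markers, which barred no cell. Nor did it hold between T and NK cells, where only *Cd3d*, *Cd3e* and *Trac* were barred from NK cells. No doublet caller was run. Doublets of T and NK cells and doublets with hepatocytes can thus remain, and the rule bears on those of the other types only. No further filter on cells was applied. Levels are CPM with exact Poisson intervals. Ratios, with exact binomial intervals, are read beside all genes with at least 100 UMIs in the pair of gates compared, for which a count of 0 was set to 3 UMIs. Those genes were not matched to the 10 by UMI count, on which the width of an interval depends. Ratios were computed from 20 cells on. Shares were read after thinning to 1000 UMIs (random seed 1) with exact Clopper-Pearson intervals. Intervals cover counting error only, with 95% confidence. The named genes are the 10, the highest and lowest of each pathway list, and the 3 nearest by correlation. The 10 genes, lists and gates were chosen with earlier results of these data known. Alternatives were strict and loose gates, a cell filter, a total without ribosomal protein and mitochondrial genes, per-cell means, thinning, and leaving out cycling cells or shared barcodes, and leaving out cells without *Cd52* was added after seeing the data. The ratio script was tested on simulated data. Computation used scipy 1.17.1 and numpy 2.4.6 under Python 3.11.15, with pandas 2.3.3, and matplotlib 3.10.9 for plots. Gene positions are from GENCODE on GRCm38.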

Additional observations from a re-analysis of the deposited data

Results flagged for a closer look

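In ConA+FICZ over ConA+Veh, *Ncl* and *Nop56* had whole intervals on opposite sides of 0 in different cell types. The log2 ratio of *Ncl* was 0.20 in B cells, 0.10 in T cells and −0.48 in NK cells. That of *Nop56* was 0.30 in B cells and −0.16 in T cells, and in T cells it changed sign without cycling cells. With 1 library per group the difference between cell types was not tested.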

How the results depend on the processing

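The medians of the 10 log2 ratios between libraries kept their direction under the alternatives run, except in NK cells for ConA+TCDD over ConA+Veh, where the median lay between −0.31 and 0.037. For T cells the median of ConA+Veh over Naïve was 1.24 by per-cell means and 1.26 after thinning, and that of ConA+TCDD over ConA+Veh was 0.38 by per-cell means, 0.38 after thinning and 0.61 without cycling cells. The value of −0.31 in NK cells came from the strict gate. For ConA+FICZ over ConA+Veh per-cell means gave 0.051 and thinning 0.045 in B cells, and in T cells the strict gate gave 0.20 and leaving out cycling cells 0.38. With *Mki67* alone as the mark of cycling, the median of cycling over non-cycling CD8 T cells in ConA+FICZ was −0.31 in place of 0.057. Without thinning, the log2 ratio of the share of B cells with a *Myc* UMI was −0.30 for ConA+Veh over Naïve in place of −1.39, and 0.67 for ConA+FICZ over ConA+Veh in place of 1.15. Single ratios of cycling over non-cycling cells by *Mki67* were checked in this way for CD8 T and DN T cells only. There 6 turned negative after their interval had lain above 0: *Ncl* (−0.25), *Npm1* (−0.30) and *Odc1* (−0.28) in CD8 T and *Eif5a* (−0.11) in DN T cells of ConA+FICZ, and *Npm1* in CD8 T (−0.051) and DN T cells (−0.11) of ConA+TCDD. The other gates, not counted here, had such turns too, among them *Npm1* in B (−0.035) and NK cells (−0.058) of ConA+TCDD. Of single ratios between libraries whose interval did not span 0, 4 changed sign: *Eif4a1* in T cells (−0.064) and *Eif5a* in NK cells (−0.21) for ConA+TCDD over ConA+Veh, without cycling cells and with the strict gate respectively, and *Eif5a* in B cells (−0.12, thinned) and *Nop56* in T cells (0.26, without cycling cells) for ConA+FICZ over ConA+Veh. Leaving out cells without a *Cd52* UMI, chosen after seeing the data, gave 2 in place of 6 genes at least 1.5-fold higher in DN T cells for ConA+TCDD over ConA+Veh, at a median of 0.36 in place of 0.64, and 0.48 in place of 1.03 among non-cycling DN T cells. Without cycling cells, also chosen then, 4 in place of 7 genes were that much higher in DN T cells for ConA+Veh over Naïve. Per-cell means moved 87 of the 120 levels beyond their interval, to 0.499 to 1.19 of the pooled CPM (median 0.83), and thinning moved 45 of 90 single ratios. The causes were not tested. Over all alternatives 262 single values moved beyond their interval, the levels and thinned ratios just named included, and 724 stayed within it or, for a count, within 1.5-fold. Of the medians for B, T, NK and cycling CD8 T cells and the ratios of *Myc* shares, 13 moved beyond their interval and 77 stayed within it. No paired analysis was possible because the labels give no replicate numbers and each group has 1 library. Depth limits NK and Treg cells most.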
